A study of Mus musculus with 2 samples.

Results

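The nuclear-encoded oxidative phosphorylation genes were taken as every symbol of the counts table that starts with Nduf (Ndufa4l2 and the Ndufaf genes apart), Uqcr, Sdha, Sdhb, Sdhc, Sdhd, Cox4, Cox5, Cox6, Cox7, Cox8 or Atp5. The rule found 103 of 30084 genes. Of these, 82 were protein-coding subunits: 36 of complex I, 4 of complex II, 8 of complex III, 17 of complex IV (with Ndufa4) and 17 of complex V. Another 4 were Sdhaf assembly factors of complex II, caught by the prefix Sdha, and 17 were not annotated as protein-coding, most of them pseudogenes. A pseudogene and its parent share sequence, and the sources used here do not say how the counting divided reads between them.

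The cells were the stromal vascular fraction of epididymal white fat, which is what remains of digested fat once the adipocytes are removed. They came from male wild-type and Mincle-deficient mice of C57BL/6J background, all after 15 weeks of high-fat feeding, and Mincle is a lectin receptor of myeloid cells encoded by Clec4e. Suspensions were marked with hashtag antibodies, pooled and captured on a BD Rhapsody system for TAS-Seq, a terminal-transferase method for single-cell cDNA. The pool gave 1 transcript library and 1 hashtag library. No label ties any of the 4 hashtags (A0309, A0310, A0311 and A0312) to a genotype, so genotypes were not compared. No test was run, and each value is given with its range over hashtags, which are not replicates of a group.

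The transcript table held 651658017 counts in 15741 cells, and all 15741 barcodes also had a hashtag row. After 367 doublets in the authors' calls and 182 cells that failed filters were removed, 15192 cells were analysed, and the median cell held 34641.5 counts of 4529 genes. Cells were clustered without these genes and without the other gene lists described here, and named from marker genes. A further 585 cells lay in 2 clusters with markers of more than 1 class, and they were left out, as were 241 macrophage-like and 224 fibroblast-like cells in mixed sub-clusters. Some classes also held markers of others. Macrophage markers summed to 0.920% of counts in macrophage-like cells, 0.509% in monocyte-like, 0.320% in T or NK cell-like and 0.187% in dendritic cell-like cells, and to 0.381% and 0.243% in the small B cell-like and lymphatic endothelial-like classes. Fibroblast markers summed to 4.51% in fibroblast-like and 0.549% in mural-like cells. Rgs5, a mural marker, was counted in 373 of 1303 endothelial-like cells. A cluster of 205 endothelial-like cells had Rgs5 as a leading gene. The part of these markers' cells in the values of each class was not tested.

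Oxidative phosphorylation is carried out by protein complexes of the inner mitochondrial membrane. Complex I (NADH dehydrogenase) and complex II (succinate dehydrogenase, also an enzyme of the citrate cycle) feed electrons to ubiquinone, complex III passes them to cytochrome c, complex IV hands them to oxygen, and complex V (ATP synthase) uses the resulting proton gradient to make ATP. Most subunits are encoded in the nucleus and imported, a small core is encoded by mitochondrial DNA, and complex II is wholly nuclear. In fat, macrophages with an oxidative metabolism and macrophages that rely more on glycolysis have both been described.

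Promoters of these genes are known for sites of NRF1 and of ETS-family factors such as GABP, and the sequences below show such letters beside genes whose levels are described later. RefSeq promoter windows of GRCm38.p6, from 250 bases before to 50 bases after the start, were found for 68 of the 82 subunits (73 windows). Each line gives the 100 bases before the start, 5′ to 3′ on the gene's strand, with the motif in capitals: GCGCATGC or its reverse complement GCATGCGC for NRF1 (both overlap where 10 letters are capitals), and CCGGAAG or its reverse complement CTTCCGG for ETS. Shown are the named genes of the macrophage and fibroblast comparison with a match in these 100 bases. Starts here are those of RefSeq, and the GENCODE start of Sdhb, given later, lies within the stretch shown for it.
Atp5g2: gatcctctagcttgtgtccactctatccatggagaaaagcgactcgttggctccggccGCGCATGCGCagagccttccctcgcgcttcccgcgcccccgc
Atp5j: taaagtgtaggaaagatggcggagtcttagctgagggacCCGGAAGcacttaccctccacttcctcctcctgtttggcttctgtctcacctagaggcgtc
Atp5k: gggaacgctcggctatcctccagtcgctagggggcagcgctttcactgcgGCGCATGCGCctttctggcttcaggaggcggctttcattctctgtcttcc
Cox6a1: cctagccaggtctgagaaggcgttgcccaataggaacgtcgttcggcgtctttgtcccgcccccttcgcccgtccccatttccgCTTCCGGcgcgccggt
Cox6b1: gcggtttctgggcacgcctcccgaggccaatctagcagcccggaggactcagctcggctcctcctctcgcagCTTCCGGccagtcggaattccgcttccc
Sdhb: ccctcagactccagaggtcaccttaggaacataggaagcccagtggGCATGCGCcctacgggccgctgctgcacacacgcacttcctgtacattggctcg
Uqcr11: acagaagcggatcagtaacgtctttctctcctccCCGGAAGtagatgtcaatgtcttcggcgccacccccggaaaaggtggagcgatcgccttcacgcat
Uqcrh: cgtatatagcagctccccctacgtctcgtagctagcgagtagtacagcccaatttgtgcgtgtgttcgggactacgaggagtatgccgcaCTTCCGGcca
Sdhb lies on the plus strand and the other 7 on the minus strand, at chr15:102671048-102671147 for Atp5g2, chr16:84834977-84835076 for Atp5j, chr5:108434400-108434499 for Atp5k, chr5:115348959-115349058 for Cox6a1, chr7:30626115-30626214 for Cox6b1, chr4:140961171-140961270 for Sdhb, chr10:80406822-80406921 for Uqcr11, chr4:116075071-116075170 for Uqcrh. Atp5g2, Atp5k, Cox6a1, Cox6b1, Sdhb and Uqcr11 were higher in macrophage-like than in fibroblast-like cells by the rule given later, and Atp5j and Uqcrh were not called, so letters of the ETS motif stood before genes of both kinds.

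Over both strands of the whole windows, NRF1 letters occurred in 10 of 68 subunit genes (14.7%), against 4.40% of the 16247 genes with a window that the counts table also holds. ETS letters occurred in 17 (25%, against 14.3%). The YY1 letters AAGATGGCG occurred in 7, of which 5 belong to complex I and 2 to complex V (10.3%, against 2.41%), and the ERR letters TCAAGGTCA in 2 (2.94%, against 0.363%). The SP1 letters GGGCGGGG were found in 12 (17.6%, against 28.4%). Matches of separate motifs may overlap, and a match is a string of letters, not a measured site. The median GC content was 57.7% in the subunit windows. It was 52.7% in all 32851 promoter windows, which include genes that the counts table does not hold.

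Among the 7 classes with more than 50 cells, the summed share of the 103 genes was highest in macrophage-like cells and lowest in fibroblast-like cells. It was 1.67% of all counts in 8027 macrophage-like cells, with 1.73%, 1.65%, 1.67% and 1.64% in hashtags A0309 to A0312. Fibroblast-like cells (n = 3329) had 1.06%, with 1.08%, 1.06%, 1.07% and 1.05%. The 2 sets of hashtag values did not overlap, and each was narrow.

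The other 5 of these classes lay in between. Dendritic cell-like cells (179) had 1.56% (1.50% to 1.69% over hashtags) and monocyte-like cells (613) had 1.55% (1.46% to 1.63%). Endothelial-like cells (1303) had 1.49% (1.44% to 1.52%) and T or NK cell-like cells (406) had 1.46% (1.36% to 1.57%). Mural-like cells (236), the contractile cells around vessels, had 1.39% (1.23% to 1.49%). Between neighbours in this order, from macrophage-like down to mural-like cells, the hashtag ranges overlapped, so their order is not separated. Nor did any neighbouring pair keep the same order within every hashtag. The fibroblast-like range lay below those of the other 6. The small classes (B cell-like, mesothelial-like and lymphatic endothelial-like) numbered 18, 17 and 14 cells, and their shares of 1.04%, 1.26% and 0.929% rest on those few cells.

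**Figure D1:**
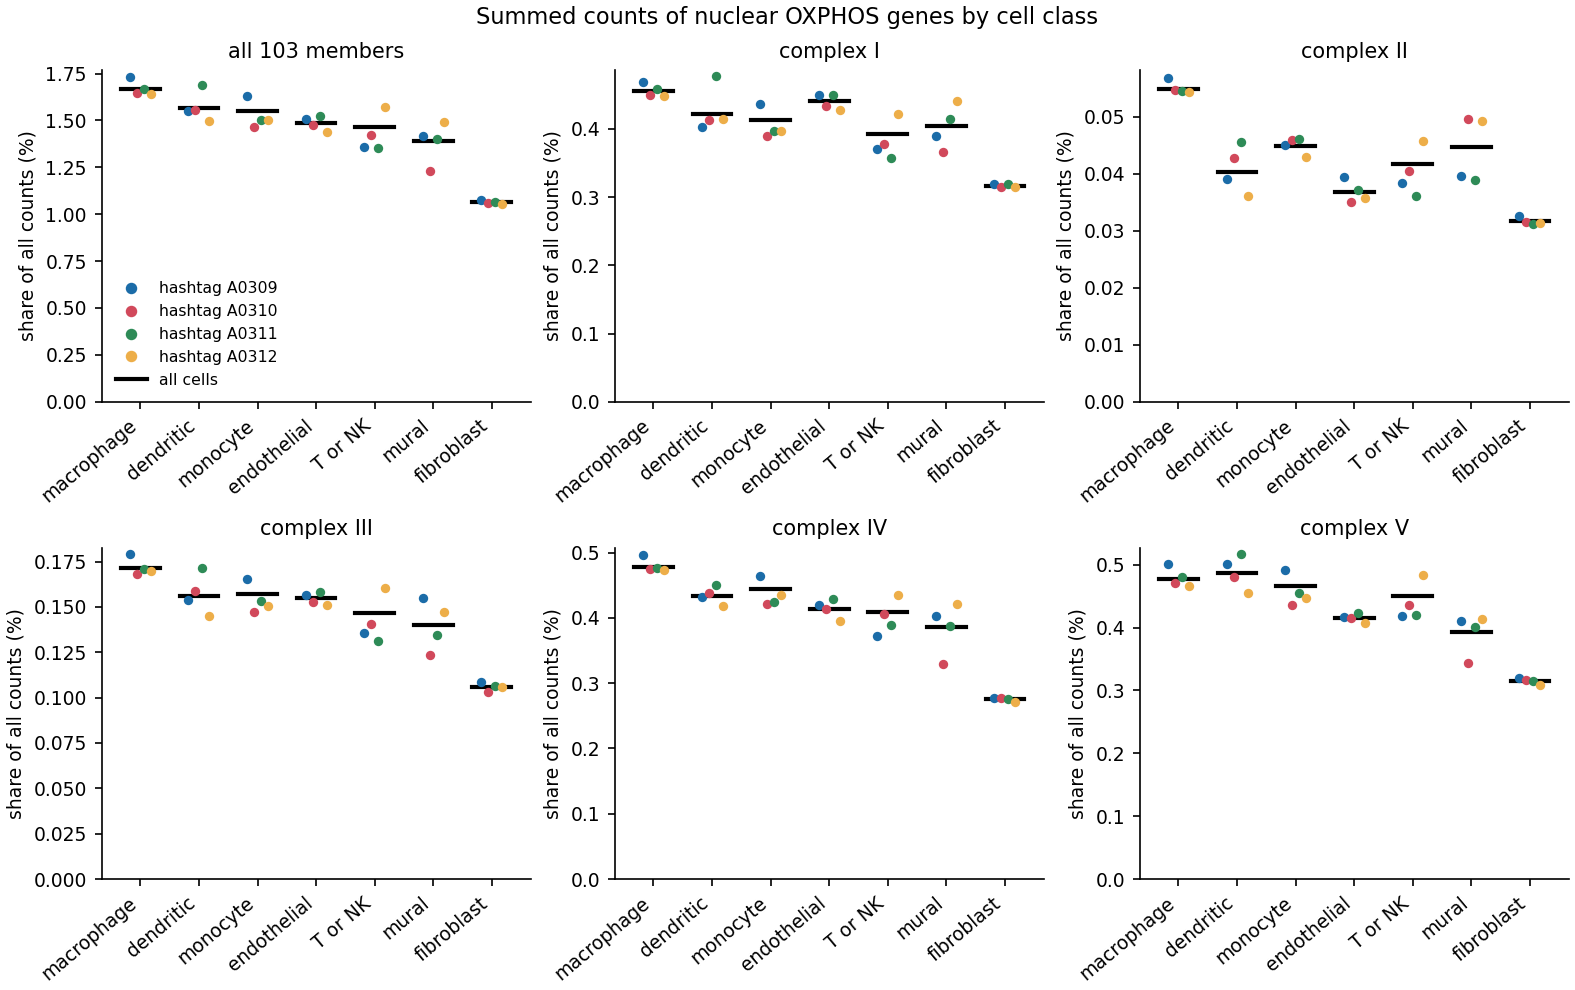
Share of all counts (%) held by the 103 nuclear oxidative phosphorylation genes and by the subunits of each complex, for 7 cell classes. Points are the 4 hashtags and bars the value over all cells of the class; fibroblast-like cells sit lowest in every panel, at 1.06% for all 103 genes.

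Among the same 7 classes, each of the complexes was lowest in fibroblast-like cells. Complex I held 0.455% of macrophage-like counts and 0.317% of fibroblast-like counts, complex III 0.171% and 0.106%, complex IV 0.479% and 0.276%, and complex V 0.477% and 0.316%. Complex II, succinate dehydrogenase, held 0.0549% and 0.0316%. The classes in between kept no fixed order: for complex V dendritic cell-like cells were highest (0.487%, 0.455% to 0.517% over hashtags), while for complex II the endothelial-like cells (0.0368%, 0.0350% to 0.0395%) came next above fibroblast-like cells. Shares are compared between classes and not between complexes, since counts were not set per length.

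Single subunits followed the sum at its low end, and less so at its high end. Of 81 subunits at 5 CPM (counts per 1000000 counts of the class) or more in at least 1 of the 7 classes, 64 had their lowest level in fibroblast-like cells and none their highest there. Macrophage-like cells had the highest level of 25, and mural-like cells, next to last for the sum, of 17. Dendritic cell-like cells had the highest level of 13 and endothelial-like cells of 12. The same counts were not made over all genes. For 60 of the 81 the highest class was less than 2-fold above the lowest, for 14 the ratio lay between 2 and 3, and for 7 it was larger, with a median of 1.76 and a lowest value of 1.15 for Ndufa11, a membrane-arm subunit of complex I.

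The mitochondrially encoded subunits, the cytosolic ribosomal protein genes and Malat1 did not follow the same order of classes. Lists closer to the complexes were, like the sum, higher in macrophage-like than in fibroblast-like cells. Mitochondrial ribosomal protein genes held 0.381% and 0.277%, assembly factors 0.110% and 0.0930%, and citrate cycle genes 0.0986% and 0.0780%. The 13 subunits encoded by mitochondrial DNA held the largest share of the 7 larger classes in mural-like cells (4.22%, 3.78% to 4.63%), which ranked next to last of them for the nuclear genes. Fibroblast-like cells were lowest here too (2.75%, 2.70% to 2.83%), and macrophage-like cells had 3.63% (3.55% to 3.70%). Cytosolic ribosomal protein genes held 11.8% in dendritic cell-like and 11.3% in T or NK cell-like cells, 7.22% in macrophage-like, 6.57% in fibroblast-like and 4.32% in mural-like cells. Malat1, a nuclear RNA, held 0.338% in mural-like, 0.143% in fibroblast-like and 0.0938% in macrophage-like cells. The part of nuclear RNA in the class shares was not tested.

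Macrophage-like and fibroblast-like cells, the cell types that the series title names, were compared gene by gene. A gene was called higher or lower where the log2 ratio of CPM + 1 was at least 0.5 in size with the same sign over all cells and in each hashtag that had 20 or more cells of both classes, among genes at 5 CPM or more in either class. Log2 ratios on this scale understate the change of low genes. The summed share had a log2 ratio of 0.65 (0.63 to 0.69 over hashtags), a 1.56-fold difference. Of 89 members at the minimum, 49 were higher in macrophage-like cells and 1 was lower, beside 24% higher and 27.8% lower of the 12090 genes tested. The median log2 ratio was 0.63 for the members and -0.03 for all genes tested.

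All 5 complexes were called higher as sums: complex I by 0.52, complex II by 0.79, complex III by 0.70, complex IV by 0.79 and complex V by 0.60 on the log2 scale. The called subunits were 14 of 36 in complex I, 3 of 4 in complex II, 6 of 8 in complex III, 11 of 14 in complex IV and 11 of 17 in complex V. Every one of the 36 complex I subunits had a ratio above 0, from 0.06 to 1.30, so most of those not called lay above 0 but under the size required.

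In complex I the largest difference was in Ndufb8, a membrane-arm subunit (chr19:44548572-44555440 in GRCm38). It stood at 257, 246, 262 and 251 CPM in macrophage-like cells of hashtags A0309 to A0312, and at 106, 101, 103 and 99.4 CPM in fibroblast-like cells. Every hashtag gave more than a doubling, and the log2 ratio was 1.30 (1.26 to 1.34). Ndufs8, an iron-sulfur subunit of the matrix arm, had 104 CPM (98.5 to 108) and 51.1 CPM (50.5 to 51.8), a log2 ratio of 1.00. Ndufa7 was the most abundant subunit not called, at 233 and 166 CPM (log2 0.48).

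In complex II, Sdhb, the iron-sulfur subunit (chr4:140961203-140979193), had 233, 219, 224 and 222 CPM in macrophage-like cells and 99.0, 92.4, 89.2 and 90.8 CPM in fibroblast-like cells. The groups of hashtags lay far apart, with a log2 ratio of 1.26 (1.23 to 1.32). Sdhc, a membrane anchor, had 112 and 64.8 CPM (log2 0.77). Sdha, the flavoprotein that oxidises succinate, was the only subunit of complex II not called, at 109 and 92.8 CPM (log2 0.23, 0.10 to 0.36).

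In complex III, Uqcrq, a small subunit, stood at 162 CPM in fibroblast-like cells and was higher in macrophage-like cells by a log2 ratio of 0.90 (0.84 to 1.00). Uqcr11, another small subunit, had 247 and 132 CPM (log2 0.90, 0.83 to 0.93). Uqcrh, the hinge protein near cytochrome c1, was not called, at 299.6 and 253 CPM (log2 0.24).

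Complex IV held the widest range. Cox5a, a core-bound subunit on the matrix side (chr9:57521274-57532426), had 267, 237, 244 and 235 CPM in macrophage-like and 78.3, 76.2, 72.6 and 75.2 CPM in fibroblast-like cells. Its log2 ratio was 1.67 (1.63 to 1.76), a difference of more than 3-fold in every hashtag. Cox6a2, known as the heart and muscle isoform, had 8.78 and 0.261 CPM (log2 2.95, 2.56 to 3.16), and Cox6c was not called (407 and 323 CPM, log2 0.33). The 1 member that was lower was Cox6b2, known as a testis isoform, at 2.91, 2.53, 1.90 and 2.77 CPM in macrophage-like and 5.37, 5.28, 4.71 and 5.10 CPM in fibroblast-like cells (log2 -0.80).

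In complex V, Atp5g2, a gene for the membrane ring subunit c, had 195, 184, 190 and 183 CPM in macrophage-like and 86.6, 91.4, 91.1 and 85.0 CPM in fibroblast-like cells. The log2 ratio was 1.07 (1.00 to 1.16), with no overlap. Atp5k, the subunit e that helps ATP synthase form dimers, had 88.1 and 44.5 CPM (log2 0.97). Atp5j, coupling factor 6, was not called, at 281 and 258 CPM (log2 0.12, 0.08 to 0.17).

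Among the symbols not annotated as protein-coding, Ndufb1-ps, Cox7c-ps1, Ndufa12-ps and Ndufb4c were called higher, with log2 ratios of 0.98, 0.93, 0.71 and 0.70. Ndufb1-ps was grouped by its annotated type alone and so was not counted among the complex I subunits. Whether it encodes a subunit was not examined. Cox7c, Ndufa12 and Ndufb4, the genes that Cox7c-ps1, Ndufa12-ps and Ndufb4c are named after, had 1.01, 0.83 and 0.70.

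**Figure D2:**
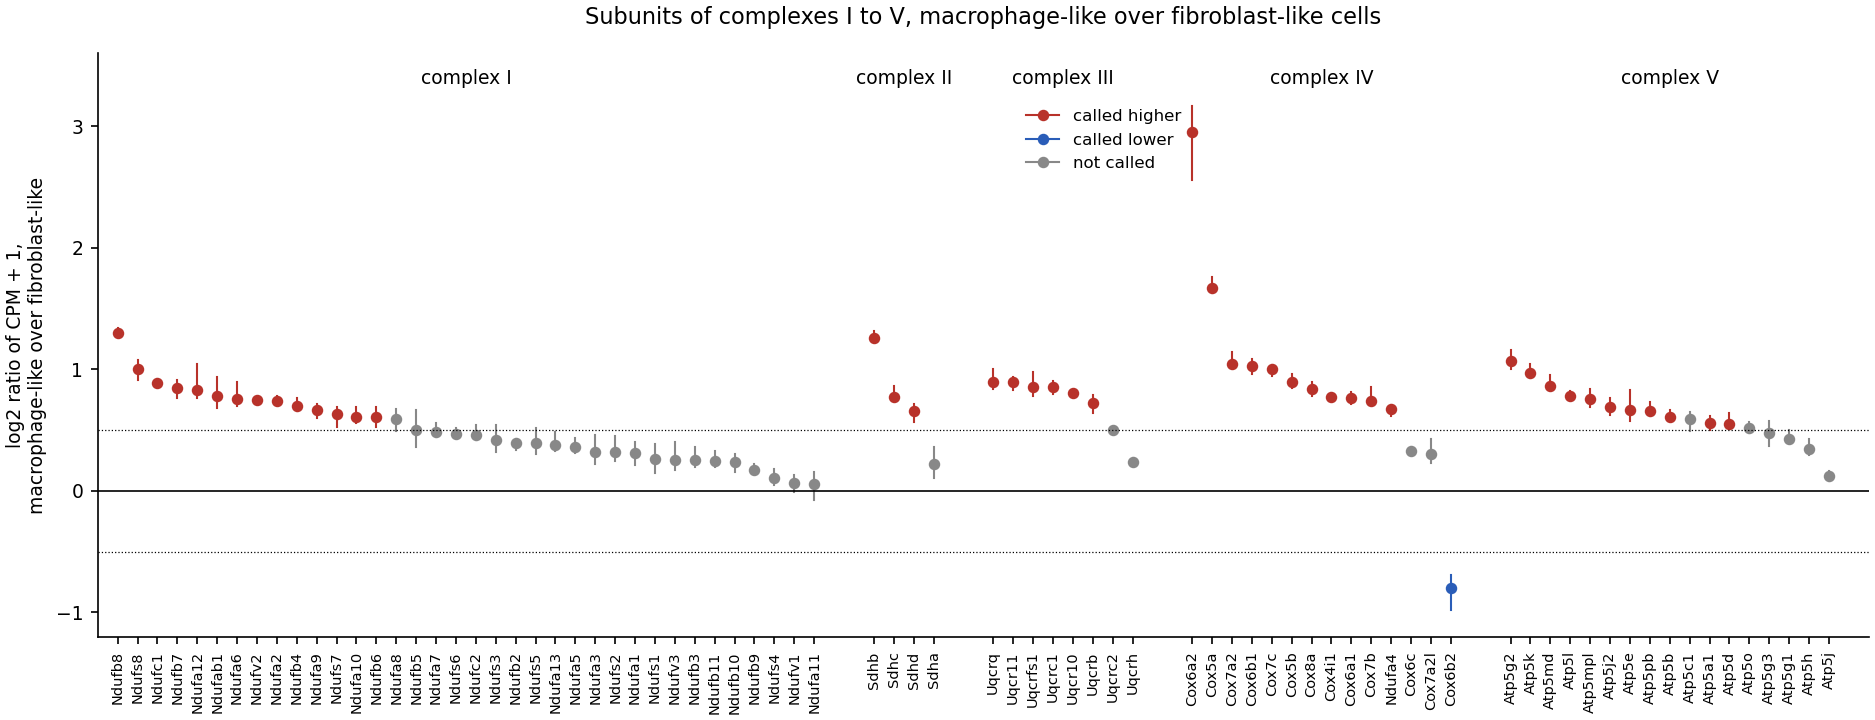
Log2 ratio of CPM + 1 in macrophage-like over fibroblast-like cells for each subunit at the minimum level, grouped by complex and ordered within it. Points are the value over all cells, lines the range over 4 hashtags, dotted lines the size of 0.5 that a call needs; 45 subunits were called higher and 1, Cox6b2, lower.

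A stricter rule on tag counts was applied on top of the authors' calls, and the cells it kept were clustered again. Before the cell filters it kept 11436 of the authors' singlets, all with the same hashtag as in those calls. The ratio of the summed share then fell just below the size required (0.499 against 0.5), and 24 members were called higher. The share of all genes called was not counted there. Under that rule 690 fibroblast-like cells remained, at a share of 1.18%, whereas 7847 macrophage-like cells kept 1.67%. The cause was not tested.

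Genes that assemble or accompany the complexes were counted by list, beside 24% higher and 27.8% lower of all genes tested. Of 40 assembly factors at the minimum, 6 were higher and 2 lower in macrophage-like cells, with Coa4, a complex IV factor, at 21.9 against 2.13 CPM (log2 2.87) and Ttc19, a complex III factor, at 7.09 against 21.7 CPM (log2 -1.49). None of the 13 mitochondrially encoded subunits was called, although 12 lay above 0 and their sum had a log2 ratio of 0.40. The citrate cycle had 1 of 13 called, Mdh2 (160 against 103 CPM, log2 0.63). Of 78 mitochondrial ribosomal proteins 28 were higher and none lower, led by Mrps6 (log2 1.36), with a median of 0.46. Of 82 cytosolic ribosomal proteins 3 were higher and none lower, led by Rps25 (log2 0.67).

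Of 7 electron carriers and further subunits 4 were higher, the largest being Atpif1, the inhibitor of ATP synthase, at 436 against 156 CPM (log2 1.48). Atp5md, 1 of the 7, starts with Atp5 and was also counted among the complex V members. The 7 carriers of the inner and outer membrane had 4 higher and 1 lower. Ucp2, an uncoupling protein family member, stood at 1661 against 62.8 CPM (log2 4.70), and Slc25a4, an ADP/ATP exchanger, was lower at 153 CPM (log2 -0.98). Of 13 regulators 2 were higher, 2 lower and 9 not called, beside 24% higher and 27.8% lower of all genes tested. Ppargc1b was higher, at 7.44 against 1.28 CPM (log2 1.89). Its relative Ppargc1a was lower, at 0.654 against 5.80 CPM (log2 -2.04), and both are coactivators of mitochondrial genes. Esrra, a nuclear receptor they act with, had 36.9 against 18.9 CPM (log2 0.93), and Tfam, which packages mitochondrial DNA, 21.5 against 24.1 CPM (log2 -0.16, not called).

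Several paralogs and 1 complex I subunit differed widely between classes. Cox4i2 (chr2:152754173-152765037), the alternative form of subunit 4 known from lung and from low-oxygen responses, had 336, 216, 255 and 251 CPM in mural-like cells of hashtags A0309 to A0312. Endothelial-like cells had 48.8, 67.3, 37.3 and 47.6 CPM, and the other 5 classes had 1.35 CPM or less. At least 1 count was seen in 169 of 236 mural-like cells (71.6%, 95% exact interval 65.4% to 77.3%), against 1.46% of macrophage-like cells, which were deeper (medians of 14505.5 and 41326 counts). The common form Cox4i1 was present in all 7 classes.

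The endothelial level went with Rgs5, which served as a mural marker. The genes that led an endothelial-like cluster of 205 cells included Rgs5 too. Whether the Rgs5 counts of endothelial-like cells came from mural RNA was not tested. When the 373 endothelial-like cells with an Rgs5 count were left out, Cox4i2 in the other 930 was 4.14 CPM instead of 48.9, and Ndufa4l2 was 12.1 instead of 121 CPM. With the stricter tag rule the endothelial values were 5.82 and 14.9 CPM.

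Ndufa4 (chr6:11900292-11907497), a complex IV subunit once assigned to complex I, had the opposite pattern to its relative Ndufa4l2, which is induced by hypoxia. Ndufa4 stood at 70.7, 94.0, 73.9 and 66.8 CPM in mural-like cells, below 254, 227, 252 and 217 CPM in endothelial-like cells and 368 CPM (362 to 376) in macrophage-like cells. It was counted in 25.4% of mural-like cells (60 of 236) and in 73.1% of endothelial-like cells (70.6% to 75.5%), whose median depth of 14980 was close. Ndufa4l2 had 772, 573, 594 and 766 CPM in mural-like cells, where 93.2% of cells had a count, 44.0 CPM in fibroblast-like and 1.03 CPM in macrophage-like cells. Of the 7 classes, mural-like cells thus held the lowest level of one and the highest of the other. Macrophage markers summed to 0.0907% of mural-like counts (0.0303% to 0.214%, the highest in hashtag A0310, which also had the highest Ndufa4). Without the deepest cells of each class, mural Ndufa4 was 43.2 CPM. The part of RNA from other cells was not tested.

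Ndufa8 (chr2:36036326-36049406), a subunit of the membrane arm of complex I on the intermembrane side, was highest in endothelial-like cells, at 251, 230, 262 and 230 CPM. The other 6 classes had 65.7 to 99.4 CPM, and no hashtag of those classes exceeded 104 CPM. Its level was thus more than 2-fold above every other class.

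Low-level isoforms also differed by class. Cox6a2 (chr7:128205435-128206387) was at 6.92, 8.71, 9.36 and 9.34 CPM in macrophage-like cells, where 13.3% of cells had a count. Monocyte-like cells had the same pooled level of 8.79 CPM, but with hashtags at 1.78, 6.01, 15.8 and 20.1 CPM and 17 of 613 cells with a count, so that level rests on few cells. The remaining classes had 1.81 CPM or less. Cox7a1, the muscle form of subunit 7a, was at 4.67 CPM in macrophage-like, 3.87 in monocyte-like, 5.08 in mural-like (21 counts) and 0.561 CPM in fibroblast-like cells. Cox6b2 was highest in monocyte-like cells (11.8, 16.9, 8.42 and 11.7 CPM) and dendritic cell-like cells (11.9 CPM). AA467197, a further Ndufa4 relative outside the rule, had 75.6 CPM in endothelial-like cells (70.4 to 82.3) and 20.4 CPM in T or NK cell-like cells (0.891 to 62.2).

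**Figure D3:**
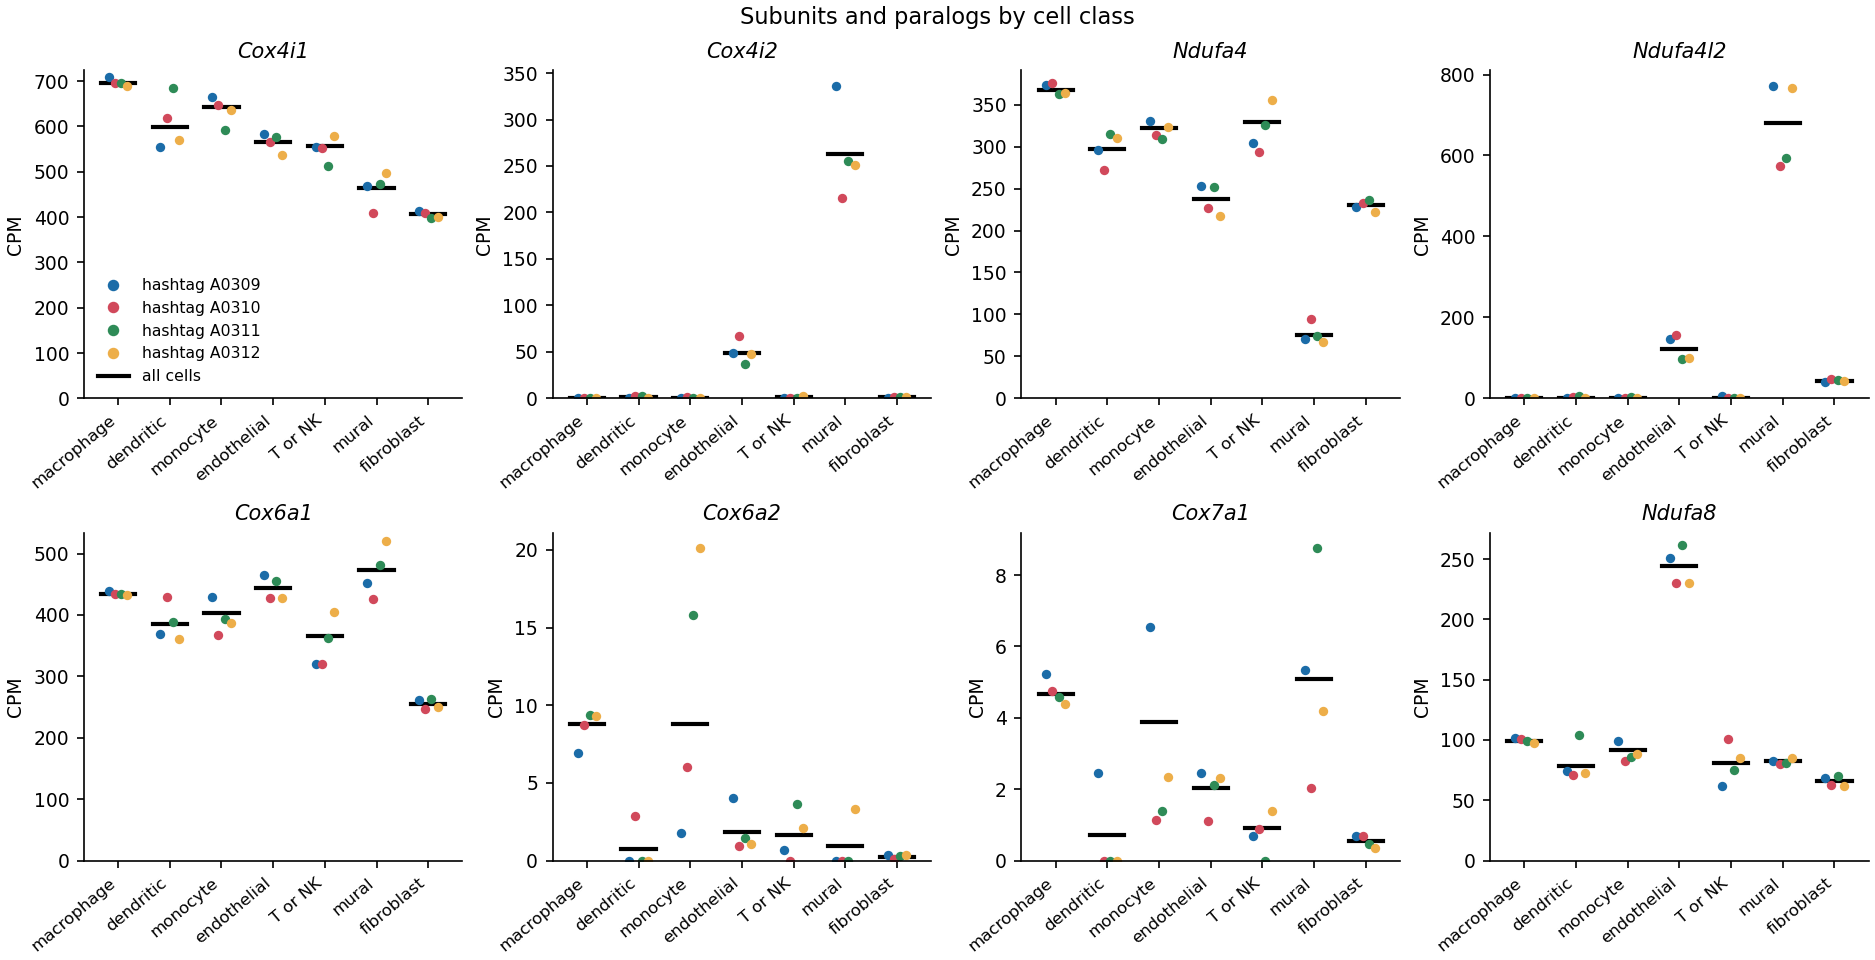
CPM of 8 genes in 7 cell classes, with hashtags as points and the value over all cells as bars. Cox4i2 and Ndufa4l2 peak in mural-like cells (263 and 679 CPM), where Ndufa4 is lowest (75.9 CPM), and Ndufa8 peaks in endothelial-like cells (244 CPM).

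Monocyte-like cells were set against macrophage-like cells, both named from markers alone, with no measure of their origin. The summed share was 1.55% against 1.67%, a log2 ratio of -0.10 (-0.17 to -0.09), and none of the 5 complexes was called. Of 89 members 1 was higher and 2 were lower, beside 10.6% higher and 8.03% lower of the 10985 genes tested. The median was -0.11 for the members and 0.06 for all genes. These shares of members called were below the background in both directions.

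The lower members were Ndufab1 and Sdhc. Ndufab1, the mitochondrial acyl carrier protein of complex I, had 59.8, 56.0, 47.4 and 48.1 CPM in monocyte-like and 96.1, 88.6, 90.8 and 85.3 CPM in macrophage-like cells (log2 -0.70). Sdhc had 73.7 and 112 CPM (log2 -0.59). Cox6b2 was the higher member, against 2.51 CPM in macrophage-like cells (log2 1.89, 1.70 to 2.34). Among the companions, Atpif1 was lower (272 and 436 CPM, log2 -0.68), and 79 of 82 cytosolic ribosomal proteins had a ratio above 0, of which 1 was called.

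Macrophage-like cells were clustered again into 15 sub-clusters, of which 13 were kept. The share of the oxidative phosphorylation genes nearly doubled from the lowest of these to the highest, sub-cluster 12. That sub-cluster was also the shallowest, with 106 cells, and the range over the other kept sub-clusters was narrower. Sub-cluster 0, of the MHC class II high-like state and led by Ccl4, Nfkbiz and Socs3, was lowest at 1.24% (1.22% to 1.29% over hashtags, 1537 cells). Sub-cluster 5 of the same state and sub-cluster 10, the resident-like cells led by Lyve1 and Cd209f, both had 1.34%. The interferon-like sub-cluster 13 had 1.54%, and the unnamed sub-clusters 2, 3 and 4 had 1.56%, 1.61% and 1.71%.

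Above these came the cycling and most lipid-associated-like cells, the foam-like macrophages that gather around dying adipocytes in obesity. The DNA synthesis-like sub-clusters 7 and 6 had 1.83% and 1.93%, and the mitosis-like sub-cluster 8 had 1.88%. The 3 lipid-associated-like sub-clusters spread widely. Sub-cluster 9, led by Serpinb9b and with the antioxidant genes Srxn1 and Prdx1 among its leading genes, had 1.58%, the large sub-cluster 1 had 1.83%, and sub-cluster 12 had 2.34% (2.14% to 2.43%, 106 cells). Sub-cluster 12 also stood apart in depth, with a median of 13520 counts per cell, in cytosolic ribosomal genes (11.4%) and in Malat1 (0.0336%).

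By state, the share was 1.26% in MHC class II high-like cells (2261 cells), 1.34% in resident-like (197), 1.54% in interferon-like (78), 1.62% in unnamed (2594), 1.81% in lipid-associated-like (1460), 1.88% in mitosis-like (367) and 1.88% in DNA synthesis-like cells (1070). The resident-like range of 1.20% to 1.48% overlapped that of MHC class II high-like cells (1.24% to 1.32%), so those states were not separated. The lipid-associated-like range of 1.76% to 1.85% lay above both.

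**Figure D4:**
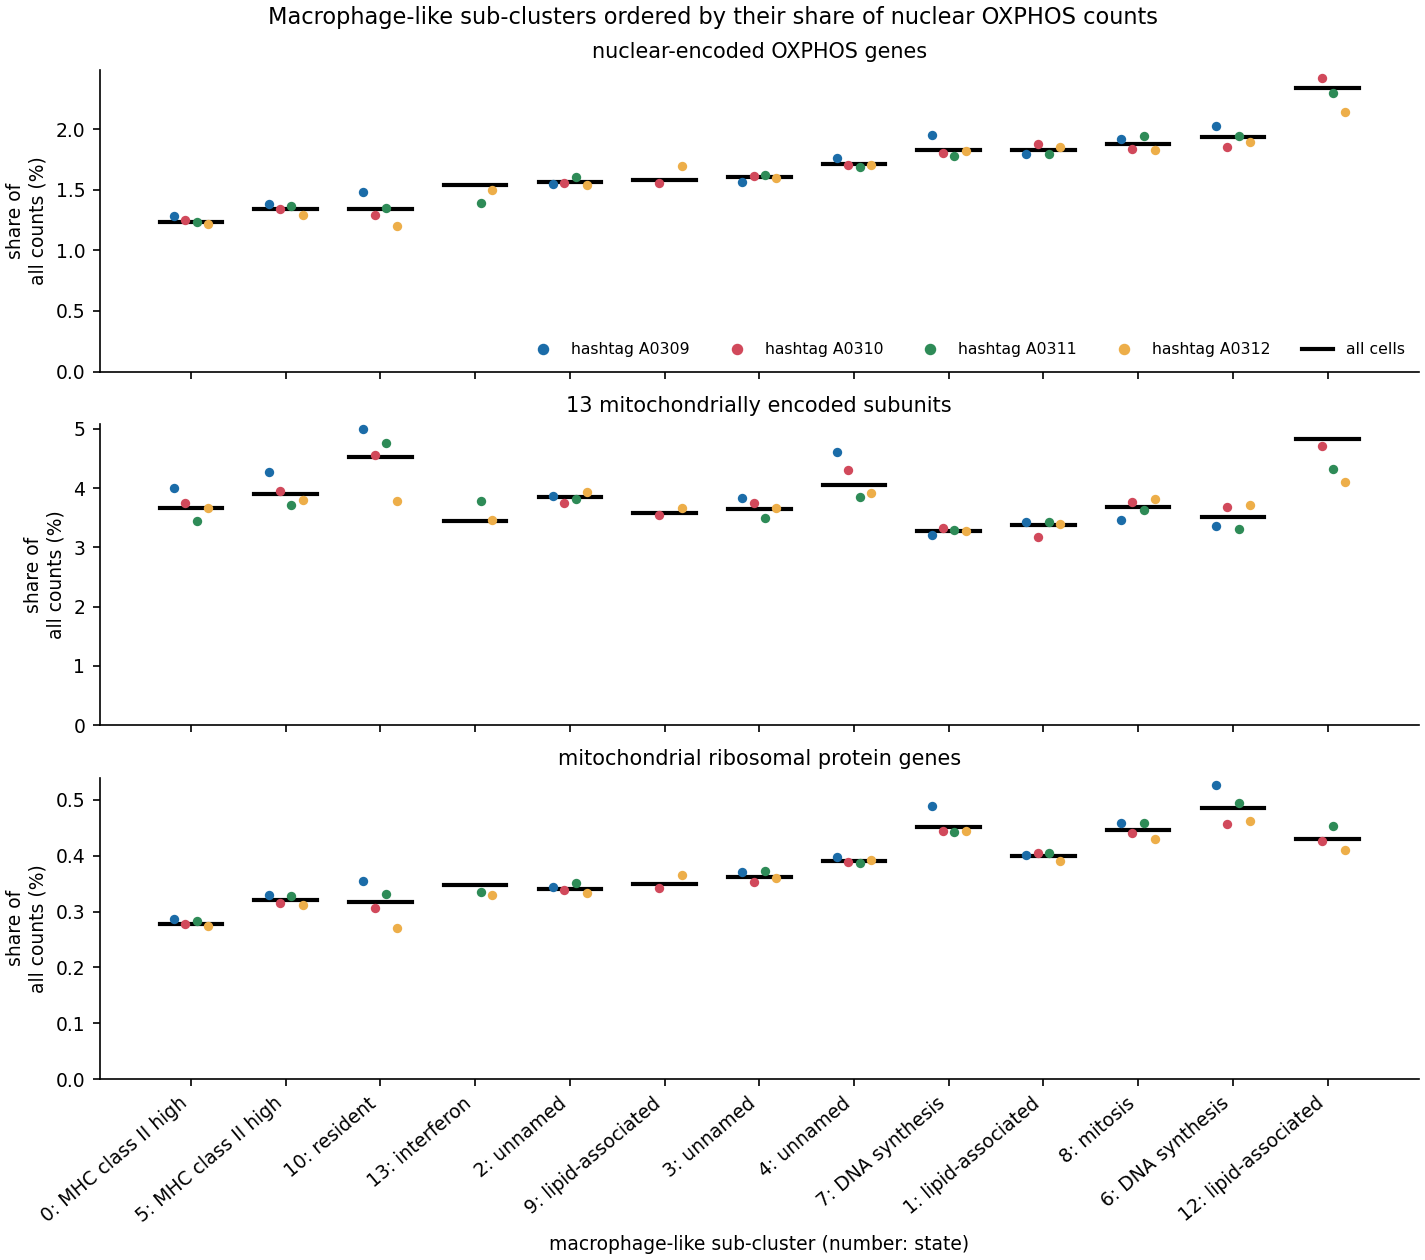
Share of all counts (%) in 13 macrophage-like sub-clusters, ordered by the nuclear oxidative phosphorylation genes (top), for those genes, the mitochondrially encoded subunits (middle) and the mitochondrial ribosomal proteins (bottom). Points are hashtags with at least 20 cells and bars all cells; the top panel runs from 1.24% to 2.34%, while the middle one keeps no such order.

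The complexes moved together over the 13 sub-clusters, with Pearson's r between pairs of complexes from 0.87 to 0.99. The sum followed the mitochondrial ribosomal proteins (r = 0.85, Spearman's rho 0.93) and the assembly factors (r = 0.92, rho 0.97). It did not follow the mitochondrially encoded subunits (r = 0.19, rho -0.13). It also went with the cytosolic ribosomal proteins (r = 0.85, rho 0.80) and against Malat1 (r = -0.70, rho -0.84). With the median depth of the sub-clusters r was 0.21 and rho 0.43. The sub-clusters share 1 library and a common total, so these are descriptions, and the part of depth and of RNA composition was not tested. These correlations were not computed without sub-cluster 12.

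Single subunits gave the same picture. Of 80 subunits at 5 CPM or more in any state, 49 were lowest in MHC class II high-like and 21 in resident-like cells, while 33 were highest in mitosis-like, 29 in DNA synthesis-like and 15 in lipid-associated-like cells. These counts, too, were not made over all genes. The median ratio of the highest to the lowest state was 1.59. Ndufab1 spanned more, from 49.8 CPM in MHC class II high-like (45.7 to 55.4) to 133 CPM in DNA synthesis-like cells (127 to 145). Atp5g3, a further gene for subunit c, went from 139 CPM (133 to 146) to 297 CPM (289 to 318) between the same states.

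Exceptions ran the other way. Cox7a2l, which helps join complexes III and IV into supercomplexes, was highest in MHC class II high-like cells at 354 CPM (339 to 368) and lowest in DNA synthesis-like cells at 231 CPM (214 to 245). Cox6a2 was at 13.2 CPM (11.3 to 15.0) in MHC class II high-like cells, against 4.85 CPM (4.25 to 5.64) in lipid-associated-like and 3.47 CPM (2.07 to 4.36) in mitosis-like cells, and none of these ranges overlapped the first.

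Lipid-associated-like cells were set against resident-like macrophages. Nuclear and mitochondrial genes for the same complexes went in opposite directions: the nuclear share was 1.81% against 1.34% and the mitochondrially encoded share 3.44% against 4.53%. The nuclear log2 ratio was 0.43 (0.29 to 0.62), which was above 0 in every hashtag but not called, and the mitochondrially encoded ratio was -0.40 (-0.51 to -0.14), also not called. Of 88 members 82 had a ratio above 0, and 5 were higher and none lower, beside 6.95% higher and 12.6% lower of the 10798 genes tested. The share of members called was below that of all genes in both directions. The median was 0.43 for the members and -0.16 for all genes.

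The called subunits were Ndufb8, Sdhb, Uqcrfs1 and Atp5g3. Uqcrfs1, the Rieske iron-sulfur protein of complex III, had 119, 105, 104 and 106 CPM in lipid-associated-like and 55.4, 66.2, 69.9 and 62.1 CPM in resident-like cells (log2 0.78, 0.57 to 1.09). Atp5g3 had 241, 239, 249 and 236 CPM against 168, 116, 161 and 119 CPM (log2 0.75). Ndufb8 had 275 against 172 CPM (log2 0.67) and Sdhb 242 against 153 CPM (log2 0.66). In each the hashtag values did not overlap. The remaining call was Sdhaf2, which attaches FAD to Sdha, at 42.4 against 19.4 CPM (log2 1.09). No subunit of complex IV was called. Cox4i1, its most abundant, had 757 against 543 CPM (log2 0.48, 0.35 to 0.73).

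This count depended on hashtag A0309, whose resident-like cells had the highest share (1.48%): without it 23 members were called, and without A0310 there were 8. At a finer clustering none was called, and at a coarser one the ratio of the sum was 0.20 and that of the mitochondrially encoded subunits -0.75. Median depth was 64332.5 counts in lipid-associated-like and 21970 in resident-like cells, and Malat1 held 0.0739% and 0.138%. Thinned to 10000 counts a cell the ratio of the sum was 0.40, with 3 members called. The share of all genes called was not counted under these alternatives.

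Beside the members, Cox17, a copper chaperone of complex IV, had 164 against 72.7 CPM (log2 1.17) and was the 1 assembly factor of 39 called. In the citrate cycle 2 of 13 were higher and 1 lower: Mdh2 had 188 against 84.5 CPM (log2 1.15) and Fh1, fumarase, 42.6 against 96.9 CPM (log2 -1.17). Of 78 mitochondrial ribosomal proteins 4 were higher, led by Mrpl20 (log2 1.23). Vdac2, an outer membrane channel, had 487 against 179 CPM (log2 1.44).

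Cycling macrophage-like cells, of the DNA synthesis-like and mitosis-like states, were set against all other macrophage-like cells. The share was 1.88% against 1.60%, a log2 ratio of 0.24 (0.20 to 0.27). Malat1 held 0.0651% against 0.103%, called lower at a log2 ratio of -0.66. Median depth was 61021 against 37759.5 counts. The part of both was not tested. The largest ratio of a complex was that of complex V (0.31) and the smallest that of complex II (0.14), and none was called. Of 89 members 1 was higher and none lower, beside 10.7% higher and 4.42% lower of the 10494 genes tested, although 82 had a ratio above 0. The median was 0.25 for the members and 0.03 for all genes.

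The called member was Ndufab1, at 136, 122, 127 and 118 CPM in cycling and 80.5, 78.8, 78.5 and 76.1 CPM in other cells (log2 0.67, 0.62 to 0.75). The groups did not overlap. Sdhb had 223 and 224 CPM, a log2 ratio of -0.01. All 13 mitochondrially encoded subunits lay below 0 (sum -0.09), while all 78 mitochondrial ribosomal proteins lay above 0 and 12 were called, led by Mrpl18 (112 against 52.2 CPM, log2 1.08). Cycs, cytochrome c, had 187 against 97.8 CPM (log2 0.93). Tfb1m, a mitochondrial ribosomal RNA methyltransferase, had 9.83 against 4.84 CPM (log2 0.89).

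Fibroblast-like cells varied little. Over 11 sub-clusters the share ran from 0.982% to 1.16%, the highest in sub-cluster 3, led by Tagln and Tnc. Dpp4-progenitor-like cells (906) had 1.06% and preadipocyte-like cells (220) 1.07%, a log2 ratio of -0.02 (-0.09 to 0.03). Of 87 members none was higher and 1 was lower, beside 5.62% higher and 5.83% lower of the 11601 genes tested. With the stricter tag rule the ratio was -0.31, and 2 members were called lower.

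The lower member was Cox8b, the isoform of subunit 8 known from muscle and brown fat. It had 0.0977, 0.112, 0.113 and 0 CPM in Dpp4-progenitor-like cells (3 counts in all hashtags) and 9.58, 8.27, 11.4 and 10.3 CPM in preadipocyte-like cells (81 counts), a log2 ratio of -3.33. The rest of the fibroblast-like sub-clusters had 4.40 CPM or less. In the preadipocyte-like sub-cluster Fabp4 and Cd36, fatty acid handling genes of adipocytes and endothelium, stood at 735 and 415 CPM. Pparg, the regulator of adipocyte formation, stood at 29.9 CPM. These 3 were at their highest there among the fibroblast-like sub-clusters. They are among the markers that named this sub-cluster, so their high levels follow from the naming. Plin1, a lipid droplet protein gene, had 13.9 CPM. Adipoq, the adipocyte hormone gene, had 0 counts there as in 8 of the other 10. Ndufa4l2 was also lower, at 7.07 against 81.6 CPM (log2 -3.36, -4.39 to -2.88). Uqcc2, an assembly factor of complex III, was higher (183 against 85.1 CPM, log2 1.10). All 82 cytosolic ribosomal proteins had a ratio above 0 and none was called.

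Per cell, the share had a median of 1.53% in macrophage-like cells (quartiles 1.22% and 1.84%, lowest 0.177%, highest 4.04%) and 1.05% in fibroblast-like cells (quartiles 0.905% and 1.20%, lowest 0.0616%, highest 2.57%). The lower quartile of the first was thus above the upper quartile of the second. The medians were 1.50% in dendritic cell-like, 1.48% in monocyte-like, 1.38% in endothelial-like, 1.28% in T or NK cell-like and 1.27% in mural-like cells. A macrophage-like cell had a median of 73 members detected and a fibroblast-like cell 64, at median depths of 41326 and 35657 counts. Cells are not replicates. The intervals given for shares of cells treat cells as independent draws pooled over hashtags, so they do not cover differences between hashtags or animals.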

How the data were processed

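The authors deposited whole-number counts per gene and cell for the transcript library and tag counts for the hashtag library. The sources used here do not say if these are reads or molecules. GRCm38, Bowtie2 2.4.2, cutadapt 3.4, R 4.1.2 and R 3.6.3 are named, with no role, per the submitters' processing notes. In the deposited counts, 68 genes have no value under 5, and no member is among them.

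Cells with 1 hashtag in the authors' calls, at least 200 genes and at most 25% mitochondrial counts were kept. Their depth ran from 6596 to 473807 counts, with hashtag medians of 33483 to 35489. Clustering (scanpy 1.11.5, leidenalg 0.10.2, Python 3.11.15) used 2000 variable genes, 30 components, 20 neighbours and resolution 1, without the members, the listed genes and mitochondrial genes. A class name needed at least 3 markers.

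Counts were summed per class and hashtag and divided by the class total, as percent or CPM. The pseudocount was 1 CPM. Intervals are 95% exact Clopper-Pearson or Poisson. The calling code was checked on simulated data. Gene positions come from GENCODE vM21 (95 members). Members, lists and comparisons were chosen with earlier results of these data known. Named in each comparison were, per complex, up to 2 called members a direction with the largest ratios, the most abundant uncalled member, isoform pairs, regulators, and the largest call of each other list; further members described by class or state were chosen after their values were seen.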

Additional observations from a re-analysis of the deposited data

How the results depend on the processing

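Over the alternatives tried no result changed sign among called values. Calls were counted for members only, so these counts have no share over all genes beside them. Of the values that answer a comparison, 35 moved, 2 fell below the rule, 1 passed it and all others stayed within the limits. The ratio of the highest-share to the lowest-share class was 1.56, and became 1.41 with the stricter tag rule, 1.46 as a mean over cells, 1.46 thinned to 10000 counts and 1.51 without the deepest cells. Macrophage-like over fibroblast-like, the log2 ratio was 0.499 with the stricter tag rule, with 24 members higher. Under a size of 1 it stayed 0.65 but was not called, with 5 members higher and 0 lower. Its lower calls were 0 as a mean over cells, 0 thinned, 0 with a pseudocount of 5, and 2 with no CPM minimum. The highest over the lowest macrophage state was 1.49, and 1.44 and 1.40 at resolutions 0.5 and 2. For monocyte-like cells the 2 lower calls became 1 at resolution 0.5, 1 without mitochondrial and ribosomal genes in the total, 1 as a mean over cells, 0 thinned, 1 with a pseudocount of 5 and 0 with a size of 1.

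For lipid-associated-like over resident-like cells the 5 calls became 0 at resolution 2, 10 without the genes whose low values are 0 in the total, 10 as a mean over cells, 3 thinned, 2 without the deepest cells and 0 with a size of 1. Leaving out a hashtag gave 5 to 23. The ratio of the mitochondrially encoded subunits there, -0.40, was -0.75 at resolution 0.5. The single cycling call became 3 as a mean over cells (with 1 lower), 5 thinned and 0 with a size of 1. Dpp4-progenitor-like cells had 2 lower calls with the stricter tag rule. The median per macrophage-like cell, 1.53%, was 1.74% and 1.77% with those 2 reduced totals and 1.35% without the most abundant member of each complex. The cause was not tested. Without macrophage-like sub-cluster 12, an alternative chosen after seeing the data like those on fibroblast-like sub-cluster 12 and Rgs5, the lipid-associated-like ratio was 0.42. Thinning left out 1063 shallow cells. Not run for want of a named class were the preadipocyte-like comparison at resolution 0.5, the monocyte-like one at resolution 2 and with the stricter tag rule, and mural-like values with that rule. The gene-by-gene comparisons set groups against each other within each hashtag, whereas statements on overlap used the hashtag ranges of each group.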
